A study of Mus musculus with 5 samples.

Results

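The axon guidance ligands and receptors described here are 58 of 12375 named loci in a table of expression values from the mouse foregut and the organs that bud from it. They were taken by name: semaphorins (Sema3 to Sema7), plexins (Plxn), neuropilins (Nrp), ephrins (Efna, Efnb), Eph receptors (Epha, Ephb), Slit proteins, Robo receptors, netrins (Ntn) and Unc5 receptors, leaving out loci whose name joins several genes. By their known roles, 30 members are ligands and 26 are receptors. The other 2, Unc50 and Unc5cl, share only the letters of the name with the netrin receptors and are kept because the name rule takes them. The rule reads names and no measured value, although the gene families were picked with earlier results of these data known.

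All tissue came from C57BL/6J mouse embryos, with no other allele or agent named in the labels. At embryonic day 8.5 (E8.5) foregut and medial foregut were taken, and at E10.5 liver, ventral pancreas and dorsal pancreas. The sequencing of poly(A) RNA gave 1 library for each of the 5 tissues, so no value below has a replicate, no test was possible, and every difference is a difference between libraries. The labels do not say how many embryos went into a library. The values are FPKM, sequenced fragments scaled for the length of the transcript and for the mapped fragments of the library, which are corrected for length and so allow levels to be set side by side between genes.

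Semaphorins, ephrins, Slits and netrins are secreted or membrane-bound cues that attract or repel the cells that meet them. Plexins, with neuropilins as partners for the secreted class 3 semaphorins, receive semaphorins; Eph receptor tyrosine kinases receive ephrins on neighbouring cells; Robo receptors receive Slits; and Unc5 receptors receive netrins. The families were first known from growing axons and also act in vessel growth, in cell sorting at tissue borders and in the shaping of epithelia, the pancreas and liver buds included.

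The tissue labels were set against marker genes. Hepatoblast markers (6 genes) summed to 5291 FPKM in liver, 503 in ventral pancreas, 51.8 in dorsal pancreas and 12.3 to 16.1 at E8.5. Pancreatic progenitor markers (6 genes) summed to 129 and 137 FPKM in ventral and dorsal pancreas and to 2.60 in liver, where 1 of them was listed at 0. The E8.5 libraries also held cardiomyocyte markers (6 of 7 found), which summed to 4665 FPKM in foregut and 8181 in medial foregut against 478 in liver and 16.3 to 17.3 in the pancreatic libraries. A library of whole tissue can hold several cell types, and in such a library fewer cells of a type and less RNA per cell cannot be told apart.

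All 58 members reached 1 FPKM in at least 1 library, 46 reached 5 FPKM in at least 1 and 14 reached 5 FPKM in all 5. None was listed at 0. Members at 5 FPKM or more numbered 38 in foregut and 34 in medial foregut, but 21 in liver, beside 30 and 39 in ventral and dorsal pancreas. In percent, 36.2% of members reached that level in liver against 61.2% of all named loci there, and 51.7% against 67.9% in ventral pancreas. The shares were 67.2% against 66.9% in dorsal pancreas, 65.5% against 64.0% in foregut and 58.6% against 63.6% in medial foregut. The summed level of the 30 ligands was 135 FPKM in liver, 189 in medial foregut, 210 in foregut, 283 in ventral pancreas and 296 in dorsal pancreas. The receptor sum spanned a narrower range, from 307 FPKM in liver to 424 in medial foregut.

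**Figure D1:**
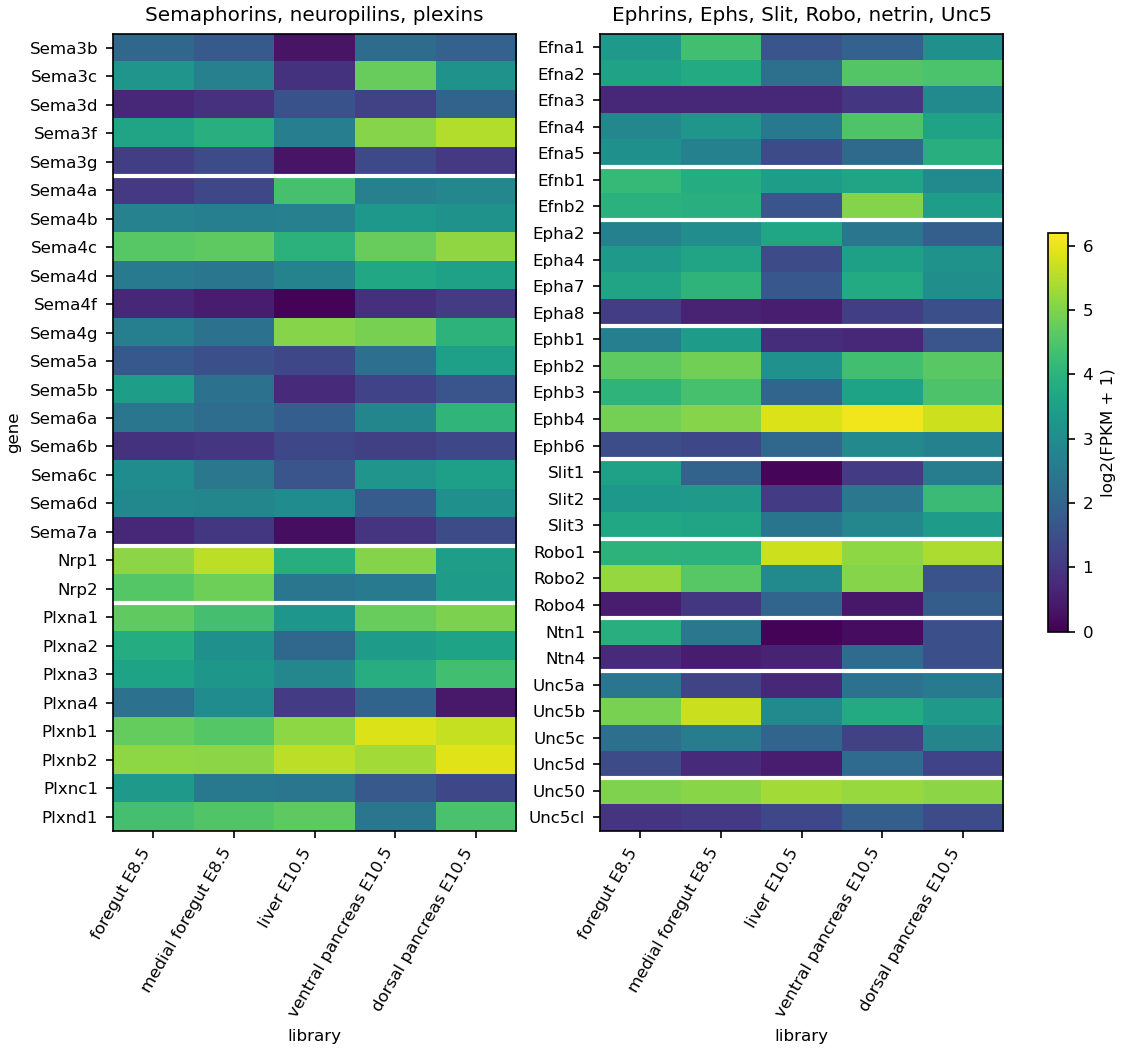
Level of each of the 58 members in the 5 libraries, as log2(FPKM + 1), grouped by family; brighter, yellow cells are higher. Rows such as Unc50 and Plxnb2 keep nearly the same shade throughout, and rows such as Ntn1, Slit1 and Sema3c do not.

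Ephb4, Plxnb2 and Plxnb1 had the highest mean levels over the 5 libraries. Plxnb2, a receptor of class 4 semaphorins, stood at 34.6 FPKM in foregut and 33.7 in medial foregut, against 46.5 in liver and 39.6 and 58.9 in ventral and dorsal pancreas, and its highest value was under 2 times its lowest. Sema4c, a membrane-bound semaphorin and a ligand of that receptor, had the highest mean of the semaphorins outside class 3 and stood at 23.2 FPKM in foregut and 24.4 in medial foregut, against 14.8 in liver and 25.99 and 35.0 in ventral and dorsal pancreas, with Sema4g above it in liver and ventral pancreas and Sema4a above it in liver. Ephb4, the receptor of ephrin-B2 known from veins, led the Eph receptors at 29.2 FPKM in foregut and 32.5 in medial foregut, against 57.4 in liver and 65.8 and 52.2 in ventral and dorsal pancreas. The Ephb4 locus covered 276% of the annotated gene and overlapped a locus on the other strand, so reads of its neighbours may enter this value. With strand not recorded, that share cannot be told apart.

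**Figure D2:**
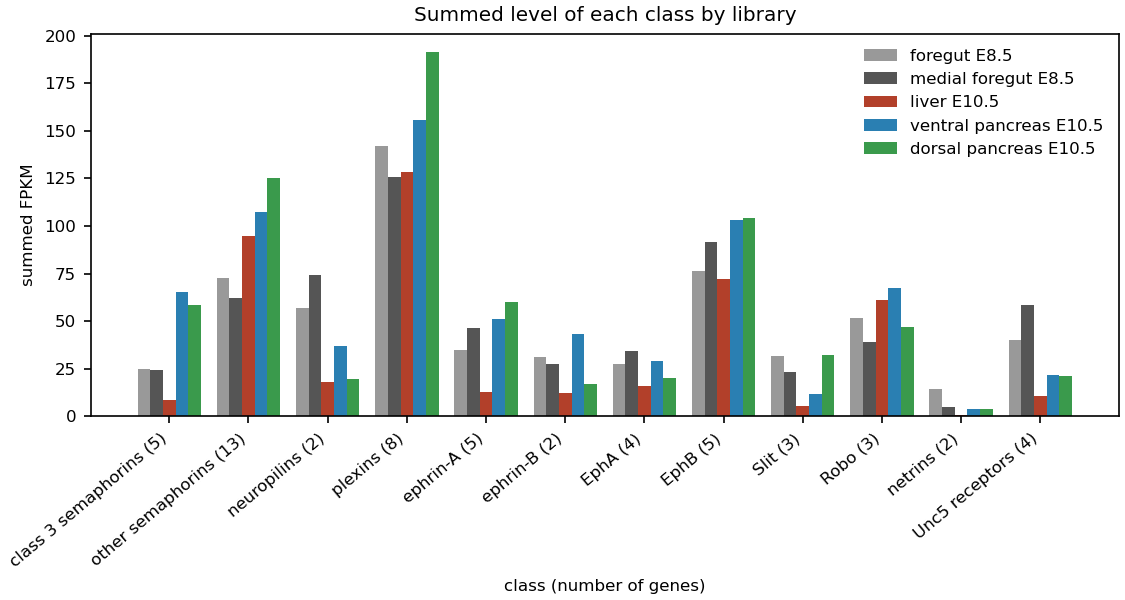
Summed FPKM of each family in the 5 libraries, 1 bar per library, with the number of members in each family. The Slit, netrin, class 3 semaphorin, ephrin-A, ephrin-B, EphA, EphB, Unc5 and neuropilin bars are lowest in liver as deposited. After a median-ratio rescaling the neuropilin sum is 19.8 in liver and 18.6 in dorsal pancreas, and the EphB sum is 79.8 in liver and 77.4 in foregut. The Robo, plexin and other semaphorin bars are lowest in medial foregut, and the plexin bars stay between 126 and 191 FPKM.

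Liver was then set against both pancreatic libraries, the pair of fates that the study's title names. A member was counted as higher or lower where log2(FPKM + 1) differed by at least 1 (2 times in FPKM + 1) in the same direction against each library, with the higher library of each pair at 5 FPKM or more. Lower in liver were 13 members, or 22.4%, where 5.36% of all named loci were counted. Higher in liver were 2 members, or 3.45%, where the background was 3.11%. The 13 were 7 ligands (Sema3c, Sema3f, Sema6a, Sema6c, Efna2, Efna4 and Efnb2) and 6 receptors (Plxna1, Plxna2, Epha4, Epha7, Ephb2 and Ephb3). The median difference over all 58 members of liver from ventral pancreas was -0.78, and from dorsal pancreas -0.96, beside -0.17 and -0.16 over all named loci. At 4 times in FPKM + 1, 3 members were lower (Sema3c, Sema3f and Efna2) and 0 higher, against 1.51% and 1.04% of all named loci. Liver held the lowest of the 3 E10.5 values for 39 of 58 members (67.2%), against 53.0% of all named loci. After a median-ratio rescaling, which moved the median of all loci by 0.20 and 0.18 toward liver, 10 members were lower and 2 higher, beside 473 lower and 591 higher over all named loci (663 and 385 as deposited). Efna4, Ephb2 and Sema6a were the 3 no longer counted. After rescaling to the same total, 19 members were lower and 2 higher, beside 1295 and 391 of all named loci. This rescaling multiplied every library, by 1.97 to 2.29, while the 5 FPKM minimum and the added 1 FPKM stayed. More loci can be counted for that reason alone, here and wherever it is used below.

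Among the secreted ligands, Sema3c, which repels or attracts cells that carry neuropilins, had the largest difference from ventral pancreas, and Slit2, Sema3f and Slit1 differed more from dorsal pancreas (-3.15, -2.84 and -2.53). Sema3c stood at 0.884 FPKM in liver against 26.2 in ventral and 7.93 in dorsal pancreas, with 8.38 in foregut and 5.498 in medial foregut, so the difference in log2(FPKM + 1) was -3.85 from ventral pancreas and -2.24 from dorsal pancreas. The locus lies on chromosome 5, 17080449 to 17236081, plus strand (mm9, as are all coordinates of loci here). Sema3f, a neuropilin-2 ligand on chromosome 9 (107574721 to 107612320, minus strand), stood at 5.25 FPKM in liver against 32.7 in ventral and 43.6 in dorsal pancreas, with 11.4 in foregut and 14.1 in medial foregut. Liver was the lowest of the 5 libraries for both genes, and ventral pancreas was the highest for Sema3c and dorsal pancreas for Sema3f. Class 3 semaphorins together summed to 8.62 FPKM in liver, against 65.4 and 58.4 in ventral and dorsal pancreas. The other members of the class were low: Sema3b, Sema3d and Sema3g did not reach 5 FPKM in any library.

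Among the ephrins, Efnb2, the transmembrane ligand of EphB receptors known from arteries, stood at 2.12 FPKM in liver against 31.9 in ventral and 10.1 in dorsal pancreas, with 14.6 in foregut and 14.0 in medial foregut. It lies on chromosome 8 (8617433 to 8661421, minus strand). Efna2, a ligand anchored to the membrane by a lipid, stood at 3.91 FPKM in liver against 22.5 in ventral and 20.7 in dorsal pancreas, with 10.9 in foregut and 12.9 in medial foregut, and lies on chromosome 10 (79642353 to 79653042, plus strand). Liver was the lowest of the 5 libraries for both. Efna4, of the same anchored class, stood at 4.67 FPKM in liver against 21.5 in ventral and 11.0 in dorsal pancreas, with 6.34 in foregut and 8.35 in medial foregut, but its locus had no strand and covered 385% of the annotated gene.

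The membrane semaphorins Sema6a and Sema6c, ligands of A-type plexins, were also lowest in liver. Sema6a stood at 2.60 FPKM in liver against 6.22 in ventral and 15.7 in dorsal pancreas, with 4.40 in foregut and 3.64 in medial foregut. Sema6c stood at 2.09 FPKM in liver against 8.35 in ventral and 10.3 in dorsal pancreas, with 7.11 in foregut and 4.54 in medial foregut. Against dorsal pancreas the differences were -2.22 and -1.87, and against ventral pancreas -1.01 and -1.60, so Sema6a only just met the rule there.

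The receptors counted as lower in liver were A-type plexins and Eph receptors. Plxna1 stood at 8.59 FPKM in liver against 25.9 in ventral and 30.6 in dorsal pancreas, with 24.8 in foregut and 19.5 in medial foregut. Plxna2 stood at 3.17 FPKM in liver against 9.78 in ventral and 11.1 in dorsal pancreas, with 13.3 in foregut and 7.62 in medial foregut. Plxna3 was just short of the rule against ventral pancreas (-0.996) and past it against dorsal pancreas (-1.46), at 6.29 FPKM in liver against 13.5 in ventral and 19.0 in dorsal pancreas, with 11.1 in foregut and 8.65 in medial foregut. Plexin-A proteins are the signalling partners of neuropilins, and of these Nrp1 was lower in liver than in ventral pancreas (-1.19) but not than in dorsal pancreas (0.40).

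Among the Eph receptors, Epha4, which binds ephrins of both classes, stood at 1.72 FPKM in liver against 10.55 in ventral and 7.96 in dorsal pancreas, with 9.25 in foregut and 11.3 in medial foregut. Epha7 stood at 2.21 FPKM in liver against 12.8 in ventral and 7.55 in dorsal pancreas, with 11.3 in foregut and 15.3 in medial foregut. Ephb2 stood at 7.77 FPKM in liver against 19.1 in ventral and 23.4 in dorsal pancreas, with 24.3 in foregut and 28.3 in medial foregut. Liver was the lowest of the 5 libraries for all 3. It was also the lowest for Ephb3, at 3.09 FPKM in liver against 11.0 in ventral and 21.0 in dorsal pancreas, with 15.5 in foregut and 20.0 in medial foregut. In liver Ephb4 made up 79.4% of the summed EphB level, against 63.9% in ventral and 50.0% in dorsal pancreas.

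The 2 members higher in liver were Sema4a and Epha2. Sema4a, a membrane semaphorin known from immune and endothelial cells, stood at 20.1 FPKM in liver against 5.45 in ventral and 6.31 in dorsal pancreas, with 1.03 in foregut and 1.49 in medial foregut, and lies on chromosome 3 (88239882 to 88262946, minus strand). Epha2, an Eph receptor of epithelia, stood at 11.6 FPKM in liver against 4.39 in ventral and 2.69 in dorsal pancreas, with 5.60 in foregut and 7.21 in medial foregut, and made up 72.6% of the summed EphA level in liver. Leukocyte markers (4 of 7 found) summed to 78.1 FPKM in liver against 2.55 and 5.11 in ventral and dorsal pancreas, and all 4 were counted as higher in liver. Epithelial markers summed to 379 FPKM in liver, against 1313 and 681 in ventral and dorsal pancreas, with 6 of 8 lower in liver and none at 0. Endocrine markers (6 genes) summed to 2.40 FPKM in liver, with 2 at 0, against 420 and 2267, with 5 lower in liver. Mesenchymal markers (12 genes) summed to 281 FPKM against 107 and 278, with 4 higher in liver and none at 0. The sums of liver and dorsal pancreas rested on different genes. Acta2 was the largest in liver, at 133 FPKM against 2.78 and 0.923 in ventral and dorsal pancreas. Barx1 was the largest in dorsal pancreas, at 89.3 FPKM against 0.234 in liver. The cardiomyocyte and hepatoblast markers given above were all counted as higher in liver, and the pancreatic progenitor markers as lower. The part of these cell types in the member differences was not tested.

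**Figure D3:**
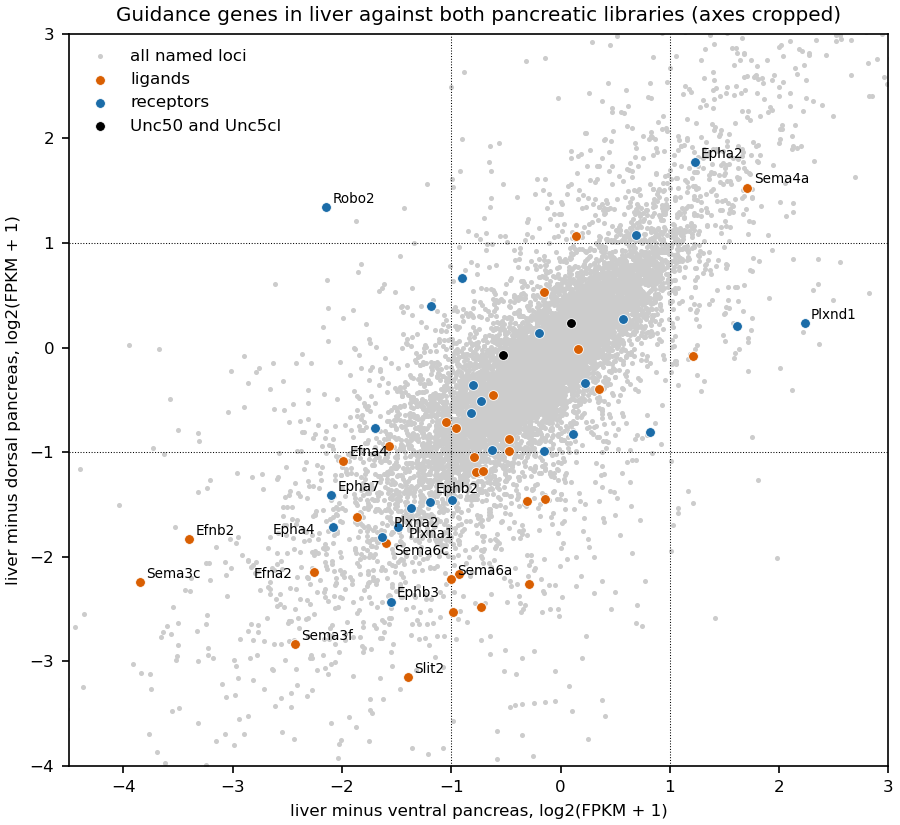
Difference in log2(FPKM + 1) of liver from ventral pancreas (x axis) and from dorsal pancreas (y axis) for each member, over all named loci in grey, with some loci outside the axes; dotted lines mark a difference of 1, and Slit2 and the points past both lines without a name fell short of 5 FPKM in a pair. The 13 members counted as lower lie in the lower left, with Sema3c at -3.85 and -2.24, and Sema4a and Epha2 lie in the upper right.

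Promoter sequence was looked up for the members in RefSeq (GRCm38.p6), where 50 of 58 genes had 66 listed starts. The 250 bases before the start of 3 genes low in liver and of Epha2, high in liver, are printed 5′ to 3′ on the strand of the gene, to show the letters upstream of genes named above. They were chosen after their values were seen and stand for no group. Capitals mark matches to a GC box (GGGCGG), an E-box (CACCTG) or a TATA box (TATAAA), on either strand.
Sema3c: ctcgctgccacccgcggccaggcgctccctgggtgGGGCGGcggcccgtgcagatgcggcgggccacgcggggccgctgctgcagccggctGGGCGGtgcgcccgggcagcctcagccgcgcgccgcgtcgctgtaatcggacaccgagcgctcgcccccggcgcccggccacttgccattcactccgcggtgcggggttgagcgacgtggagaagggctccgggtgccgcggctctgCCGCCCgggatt
Efnb2: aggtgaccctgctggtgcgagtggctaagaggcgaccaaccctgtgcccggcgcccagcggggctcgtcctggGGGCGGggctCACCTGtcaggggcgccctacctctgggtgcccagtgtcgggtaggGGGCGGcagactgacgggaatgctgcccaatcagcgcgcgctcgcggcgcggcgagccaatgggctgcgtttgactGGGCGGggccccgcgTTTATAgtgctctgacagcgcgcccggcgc
Efna2: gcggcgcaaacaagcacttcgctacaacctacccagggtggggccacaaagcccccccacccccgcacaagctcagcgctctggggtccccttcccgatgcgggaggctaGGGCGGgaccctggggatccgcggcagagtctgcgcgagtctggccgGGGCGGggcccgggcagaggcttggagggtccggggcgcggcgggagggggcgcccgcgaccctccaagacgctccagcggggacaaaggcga
Epha2: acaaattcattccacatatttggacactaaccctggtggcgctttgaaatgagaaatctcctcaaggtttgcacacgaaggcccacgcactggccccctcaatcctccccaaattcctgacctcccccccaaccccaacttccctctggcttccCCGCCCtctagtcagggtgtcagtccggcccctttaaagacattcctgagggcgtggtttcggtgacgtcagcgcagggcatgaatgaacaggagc
These windows are, in order, chr5:17574566-17574815 on the plus strand, chr8:8661243-8661492 on the minus strand, chr10:80179232-80179481 on the plus strand and chr4:141300971-141301220 on the plus strand. They held 39, 27, 25 and 9 CpG dinucleotides, where the median was 16 over the 66 member promoters and 6 over all 32851 promoters of the same length. A GC box lay in 48 of 66 member promoters (72.7%) and in 32.7% of all promoters. Among the 13 members lower in liver, 10 had a listed promoter and 8 of those held a GC box, as did both members higher in liver. The E-box was in 13.6% of member promoters against 17.2% of all, and the TATA box in 3.03% against 12.4%. A forkhead motif (TGTTTAC) and an HNF4 motif (CAAAGTCCA) were in 0 of 66, against 3.17% and 0.384% of all promoters, and a GATA motif (AGATAA) was in 2 of 66. Each motif was searched on both strands, matches that overlap were each counted, and a match or its absence in this window describes the letters and nothing of a factor.

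Of the pathway genes that act with these families, 62 of 75 listed were found. Lower in liver than in both pancreatic libraries were 10 of them (16.1%, against 5.36% of all named loci) and higher were 2 (3.23%, against 3.11%). Flrt2 and Flrt3, adhesion proteins that bind Unc5 receptors, were lower in liver: Flrt2 stood at 8.22 FPKM in liver against 50.5 and 63.5 in ventral and dorsal pancreas. Flrt3 stood at 5.29 against 76.7 and 11.7. Rgma, a membrane-anchored ligand of neogenin, stood at 0.577 against 12.3 and 19.4, and Dpysl5, a collapsin response mediator, at 2.54 against 43.0 and 22.4. The 2 higher in liver were Mical2 (9.60 against 2.65 and 4.22 FPKM), an oxidase that acts on actin downstream of plexins, and Ngef (5.10 against 1.92 and 0.989), an exchange factor of EphA receptors. Within lists, the lower ones were 1 of 7 netrin and RGM partners, 3 of 12 Slit and Robo partners, 3 of 19 semaphorin transducers, 1 of 12 Eph transducers, none of the VEGF genes and 2 of 5 FLRT and latrophilin genes.

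The pancreatic buds were compared with each other next. Lower in ventral than in dorsal pancreas were 10 members (17.2%), against 2.47% of all named loci. Higher in ventral pancreas were 4 members (6.90%), against 3.28%. The median difference, ventral minus dorsal, was -0.21 over members and 0.01 over all named loci. Dorsal pancreas held the highest of the 3 E10.5 values for 29 of 58 members (50%), against 34.4% of all named loci. After rescaling to the same total, 14 members were lower and 6 higher, and over all named loci the balance turned, with 532 lower (4.3%) and 513 higher (4.15%) against 306 and 406 as deposited. Of the 14 members counted in either direction as deposited, 10 were ligands: Sema3c and Efnb2 higher in ventral pancreas, and Slit1, Slit2, Efna1, Efna3, Efna5, Sema5a, Sema6a and Sema6d higher in dorsal pancreas.

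Robo2, a Slit receptor on chromosome 16 (73892004 to 74413090, minus strand), had the largest difference, 3.49, and was the sole member over 4 times higher in FPKM + 1, where 0.913% of all named loci were counted. It stood at 36.1 FPKM in foregut and 23.1 in medial foregut, against 6.64 in liver and 32.8 and 2.01 in ventral and dorsal pancreas. Its paralog Robo1 did not follow it, at 15.2 FPKM in foregut and 14.9 in medial foregut, against 51.6 in liver and 34.5 and 42.6 in ventral and dorsal pancreas. Robo1 thus made up 90.4% of the summed Robo level in dorsal pancreas, 84.2% in liver and 51.0% in ventral pancreas, and Robo2 was the largest in both E8.5 libraries. The Robo1 locus covered 37.0% of the annotated span.

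Slit2 and Slit1 had their higher value of the buds in dorsal pancreas, and Robo2 in ventral pancreas. Slit2 stood at 8.93 FPKM in foregut and 9.18 in medial foregut, against 1.10 in liver and 4.52 and 17.6 in ventral and dorsal pancreas, with its locus on chromosome 5 (48373870 to 48707802, plus strand). Slit1 stood at 10.7 FPKM in foregut and 2.91 in medial foregut, against 0.0701 in liver and 1.12 and 5.18 in ventral and dorsal pancreas, and after a median-ratio rescaling its difference was -1.534 (-1.55 as deposited) but its dorsal value was under the 5 FPKM minimum. Slit3 stood at 12.1 FPKM in foregut and 11.2 in medial foregut, against 4.30 in liver and 6.35 and 9.55 in ventral and dorsal pancreas and was not counted between the buds (-0.52). The Slit sum was 11.98 FPKM in ventral pancreas and 32.3 in dorsal pancreas, the latter close to the 31.8 of foregut.

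Besides Robo2, the receptors counted were Nrp1, higher in ventral pancreas, and Plxnd1 and Unc5c, lower there. Nrp1, a co-receptor of class 3 semaphorins and of VEGF, stood at 34.0 FPKM in foregut and 46.8 in medial foregut, against 13.5 in liver and 32.1 and 10.02 in ventral and dorsal pancreas, where Nrp2 stood at 22.8 FPKM in foregut and 27.5 in medial foregut, against 4.38 in liver and 4.96 and 9.71 in ventral and dorsal pancreas. Nrp1 therefore made up 86.6% of the neuropilin sum in ventral pancreas and 50.8% in dorsal pancreas. Unc5c, a netrin receptor, stood at 3.92 FPKM in foregut and 5.17 in medial foregut, against 3.05 in liver and 1.304 and 6.11 in ventral and dorsal pancreas.

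Plxnd1, a semaphorin receptor known from endothelium, stood at 19.6 FPKM in foregut and 21.9 in medial foregut, against 24.2 in liver and 4.36 and 20.5 in ventral and dorsal pancreas, on chromosome 6 (115904588 to 115945362, minus strand). It was the sole member more than 4 times lower in FPKM + 1 (-2.003), where 0.768% of all named loci were counted. Endothelial markers (8 of 10 found) also had their lowest sum in ventral pancreas, at 27.3 FPKM. They summed to 57.5 in dorsal pancreas, 88.3 in liver, and 105 and 141 in foregut and medial foregut, with none at 0. Outside ventral pancreas Plxnd1 stayed between 19.6 and 24.2 FPKM. Of the 8 endothelial markers, 5 were lower in the ventral than in the dorsal bud and 1, Flt1, was higher. Robo4, another endothelial receptor, stood at 0.417 FPKM in foregut and 1.01 in medial foregut, against 3.07 in liver and 0.326 and 2.54 in ventral and dorsal pancreas and was too low to be counted. The part of endothelium in these values was not tested.

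Ephrin-A ligands differed by gene between the buds. Efna3 stood at 0.632 FPKM in foregut and 0.653 in medial foregut, against 0.601 in liver and 0.960 and 6.67 in ventral and dorsal pancreas, so that dorsal pancreas alone was above 1 FPKM. Efna5 stood at 7.61 FPKM in foregut and 5.63 in medial foregut, against 1.66 in liver and 3.42 and 13.9 in ventral and dorsal pancreas. Efna1 stood at 9.09 FPKM in foregut and 18.9 in medial foregut, against 2.11 in liver and 2.85 and 7.63 in ventral and dorsal pancreas. These 3 were higher in dorsal pancreas, whereas Efna2 was level between the buds (0.11) and Efna4 was on the ventral side without meeting the rule (0.91). Efnb1 stood at 16.8 FPKM in foregut and 13.2 in medial foregut, against 10.1 in liver and 11.4 and 6.69 in ventral and dorsal pancreas, so the ephrin-B sum of 43.3 FPKM in ventral and 16.8 in dorsal pancreas rested mainly on Efnb2.

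Of the membrane semaphorins, Sema5a stood at 2.28 FPKM in foregut and 1.88 in medial foregut, against 1.53 in liver and 3.82 and 10.3 in ventral and dorsal pancreas. Sema6d stood at 6.41 FPKM in foregut and 6.16 in medial foregut, against 7.13 in liver and 2.51 and 7.62 in ventral and dorsal pancreas, over a locus that covered 10.1% of the annotated gene. Together with Sema6a, both were lower in ventral pancreas. Neural markers (10 of 11 found) summed to 21.0 FPKM in ventral and 80.2 in dorsal pancreas, with 3 lower in ventral pancreas and 1 at 0 in dorsal pancreas. The 3 were Nefl (1.79 and 32.8 FPKM in ventral and dorsal pancreas), Pax6 (7.24 and 26.2) and Tubb3 (4.09 and 13.1). The other neural markers were under 5 FPKM in both buds. Of these, Sox1, Sox2, Olig2, Dcx and Elavl3 were higher in ventral pancreas, and Stmn2 and Elavl4 in dorsal pancreas. Endocrine markers (6 genes) summed to 420 and 2267 FPKM, mesenchymal markers (12 genes) to 107 and 278 with 5 lower in ventral pancreas, and epithelial markers to 1313 and 681. The part of these cells in the differences was not tested.

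**Figure D4:**
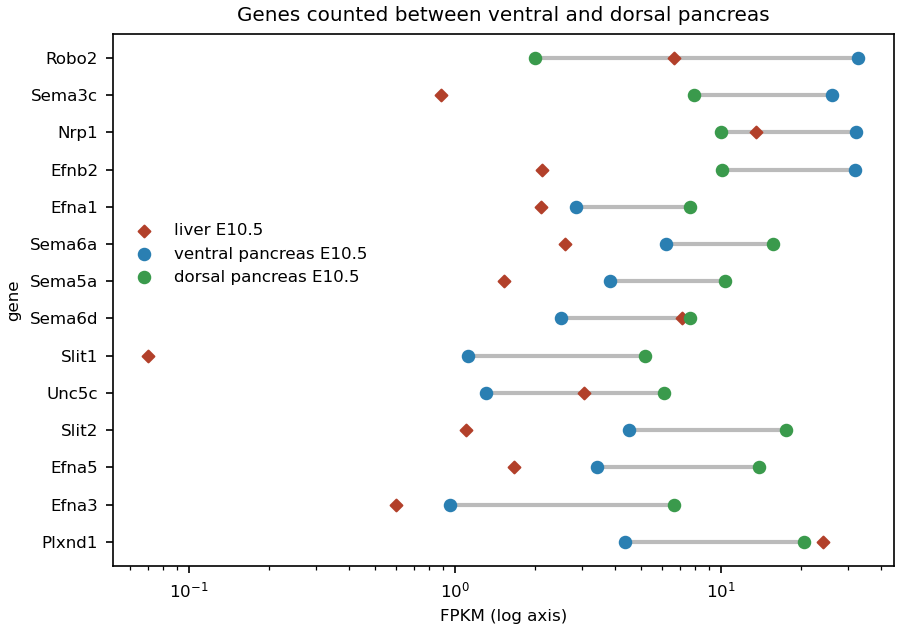
Members counted between ventral and dorsal pancreas, with FPKM on a log axis; circles are the pancreatic libraries, joined by a line, and diamonds are liver. Robo2, Sema3c, Efnb2 and Nrp1 lie higher in ventral pancreas, and the other 10 lie higher in dorsal pancreas.

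Among the pathway genes, 4 of 62 (6.45%) were higher and 3 (4.84%) lower in the ventral bud, against 3.28% and 2.47% of all named loci. Rnd2 and Rnd3, GTPases that bind plexins, and Flrt3 and Flt1 were higher. Crmp1 and Dpysl3, collapsin response mediators of neurons, were lower, with Crmp1 at 1.80 FPKM in the ventral and 19.0 in the dorsal bud and Dpysl3 at 8.67 and 25.1. The third was Kdr, the main VEGF receptor of endothelium.

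Each E10.5 library was then set against both E8.5 libraries. The 3 comparisons share the E8.5 libraries, stage and tissue differ together in them, and the heart markers given above are in the E8.5 libraries alone at that level. In liver, 18 members (31.0%) were lower and 3 (5.17%) higher, against 6.08% and 5.24% of all named loci. In ventral pancreas 6 members (10.3%) were lower and 10 (17.2%) higher, against 3.31% and 6.38%. In dorsal pancreas 5 members (8.62%) were lower and 9 (15.5%) higher, against 2.8% and 4.36%. After rescaling to the same total, dorsal pancreas had 7 members lower and 13 higher, against 3.37% and 7.74% of all named loci. Ventral pancreas then had 10 lower and 13 higher, against 4.4% and 9.67%. For liver the balance over all named loci turned by median ratio, from 753 lower and 649 higher to 685 and 751, while the members went from 18 and 3 to 17 and 3. The median difference from foregut over all members was -0.77 for liver, 0.16 for ventral pancreas and 0.39 for dorsal pancreas, beside -0.09, 0.11 and 0.09 over all named loci.

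Higher in all 3 E10.5 libraries were Sema4a, Sema4g and Robo1. Sema4g, a membrane semaphorin on chromosome 19 (45063759 to 45078089, plus strand), stood at 5.43 FPKM in foregut and 4.09 in medial foregut, against 32.8 in liver and 29.6 and 15.1 in ventral and dorsal pancreas. Its lowest E10.5 value was thus above both E8.5 values. Sema4d, a Plxnb1 ligand, was counted in the pancreatic libraries, though not in dorsal pancreas after a median-ratio rescaling (0.90), at 4.80 FPKM in foregut and 4.38 in medial foregut, against 5.82 in liver and 12.2 and 10.6 in ventral and dorsal pancreas. Plxnb1 itself was counted in ventral pancreas, at 25.6 FPKM in foregut and 22.7 in medial foregut, against 34.3 in liver and 57.3 and 49.5 in ventral and dorsal pancreas. Ephb6, an Eph receptor without kinase activity, was higher in both pancreatic libraries at 1.75 FPKM in foregut and 1.53 in medial foregut, against 3.28 in liver and 6.54 and 5.62 in ventral and dorsal pancreas, over a locus that overlaps Trpv6 and covers 216% of the annotated gene.

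Lower in all 3 E10.5 libraries were Unc5b, Nrp2 and Ephb1. Unc5b, a netrin receptor of endothelium on chromosome 10 (60225334 to 60294359, minus strand), stood at 30.2 FPKM in foregut and 51.0 in medial foregut, against 6.86 in liver and 12.7 and 9.06 in ventral and dorsal pancreas. Ephb1 stood at 5.36 FPKM in foregut and 9.62 in medial foregut, against 0.744 in liver and 0.607 and 2.10 in ventral and dorsal pancreas. The Unc5 sum was 40.2 and 58.3 FPKM at E8.5 and 10.9 to 21.6 at E10.5. The other members lower in liver than in both E8.5 libraries were Efna1, Efna2, Efna5, Efnb2, Sema3c, Slit2, Slit3, Plxna1, Plxna2, Nrp1, Robo2, Epha4, Epha7, Ephb2 and Ephb3. Robo2 and Nrp1 were lower in dorsal pancreas as well, and Efna1, Plxnd1 and Sema6d in ventral pancreas.

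Efnb2 and Sema3c were lower in liver and higher in ventral pancreas than in both E8.5 libraries. For Efnb2 the difference nearest to 0 was -2.27 in liver and 1.08 in ventral pancreas, and for Sema3c it was -1.79 and 1.54. After a median-ratio rescaling Efnb2 was at 0.94 in ventral pancreas and no longer counted there, as were Plxnb1 and Robo1 (0.9993 and 0.9971, just short of the rule). In dorsal pancreas Efnb2 and Sema3c were near the E8.5 values, with -0.44 and -0.49 for Efnb2 and -0.07 and 0.46 for Sema3c. Sema3f, Efna3, Sema5a and Sema6a were higher in dorsal pancreas than at E8.5, and Sema3f and Efna4 in ventral pancreas.

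**Figure D5:**
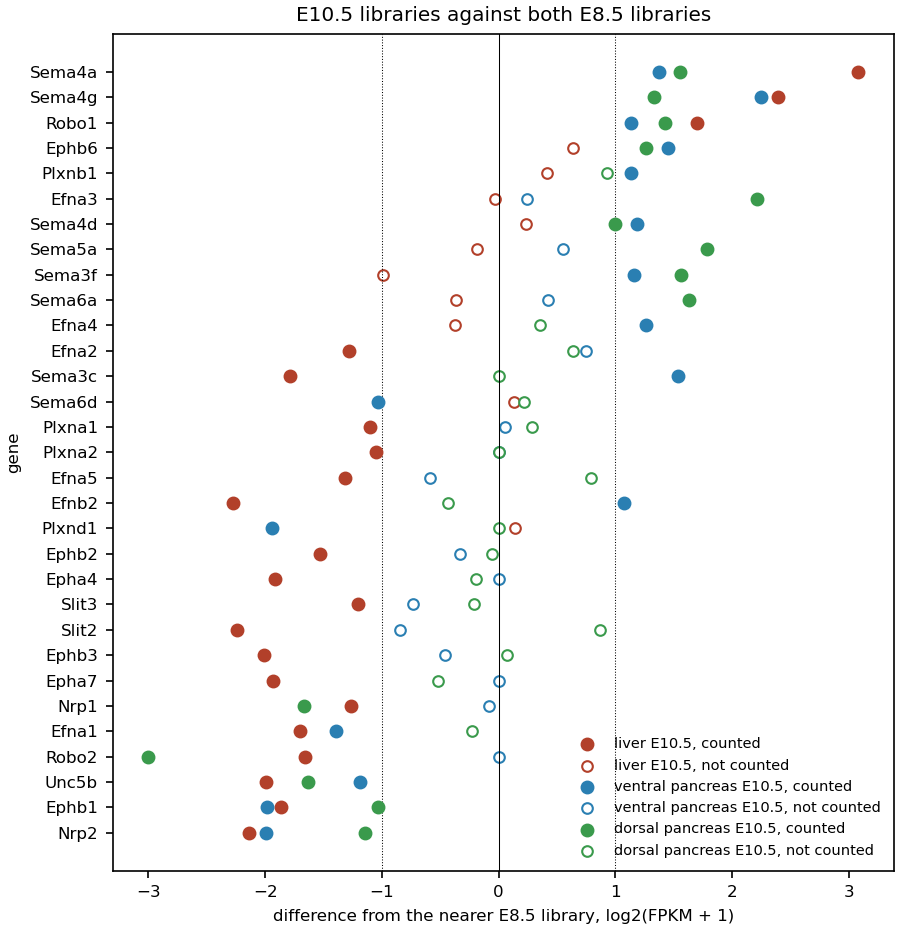
Difference of each E10.5 library from the E8.5 libraries in log2(FPKM + 1) for members counted in at least 1 of the 3 comparisons; the value plotted is the difference nearest to 0 of the 2, and 0 where the E10.5 value lies between the E8.5 values. Efnb2 and Sema3c have liver on the negative side and ventral pancreas on the positive side, while Unc5b, Nrp2 and Ephb1 are negative in all 3.

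Of the 62 pathway genes, 2 (3.23%) were higher and 9 (14.5%) lower in liver than at E8.5. In ventral pancreas 2 were higher and 5 (8.06%) lower, and in dorsal pancreas 2 were higher and 4 (6.45%) lower. The 2 higher were thus below the 5.24%, 6.38% and 4.36% of all named loci in each comparison. The shares lower were above the 6.08%, 3.31% and 2.8% of all named loci, in the same order. Met, the HGF receptor and a partner of Plxnb1, was higher in liver (23.3 FPKM) and ventral pancreas (16.7) than in foregut (4.52) and medial foregut (4.14). Crmp1 and Dpysl3 were lower in both of these libraries.

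At E8.5, foregut and medial foregut were close. Higher in foregut were 3 members (5.17%), against 0.469% of all named loci, and 0 were lower, against 0.275%. After rescaling to the same total, 5 members were higher and 0 lower, beside 161 and 33 of all named loci (58 and 34 as deposited). The 3 counted as deposited were ligands. Ntn1, a secreted netrin on chromosome 11 (68022865 to 68201003, minus strand), stood at 13.8 FPKM in foregut and 4.46 in medial foregut, against 0.0465 in liver and 0.153 and 1.86 in ventral and dorsal pancreas. Slit1, given above, differed by 1.59, where Ntn1 differed by 1.44. Sema5b, a membrane semaphorin, stood at 10.1 FPKM in foregut and 3.997 in medial foregut, against 0.706 in liver and 1.36 and 2.12 in ventral and dorsal pancreas. Ntn1 and Slit1 had the widest ranges among members as ratios of FPKM, with the highest value 298 and 153 times the lowest. These ratios rest on liver values of 0.0465 and 0.0701 FPKM. In log2(FPKM + 1) liver differed from foregut by -3.83 and -3.46, beside -3.85 for Sema3c between liver and ventral pancreas.

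The sum of neural markers was also higher in foregut. It was 132 FPKM in foregut and 59.6 in medial foregut, with 3 (Sox2, Pax6 and Olig2) counted as higher in foregut and no marker at 0. Neural crest markers (7 genes) summed to 39.0 and 8.59 FPKM. In liver, where Ntn1 and Slit1 were lowest, the neural sum was 5.73 FPKM with 2 markers at 0. In dorsal pancreas the neural sum was 80.2 FPKM, above that of medial foregut. Its largest parts were Nefl at 32.8, Pax6 at 26.2 and Tubb3 at 13.1 FPKM. Sox2 stood at 0.464, Sox1 at 0.0754 and Olig2 at 0. Endocrine markers summed to 2267 FPKM in the same library. There Ntn1 (1.86 FPKM) and Sema5b (2.12) were below their medial foregut values, and Slit1 (5.18) was above. The part of neural tissue in these values was not tested. Of the pathway genes, 1 of 62, the Robo-binding GTPase-activating protein Srgap3, was higher in foregut (1.61%, against 0.469% of all named loci) and 0 were lower.

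Of the 58 members, 21 were counted in none of the 6 comparisons, and 12 stayed under 5 FPKM in all 5 libraries. Unc50, a membrane protein with no known guidance role, stood at 31.1 FPKM in foregut and 33.0 in medial foregut, against 39.7 in liver and 37.0 and 33.6 in ventral and dorsal pancreas. Its locus covered 244% of the annotated gene and overlapped a locus on the other strand, so reads of a neighbour may enter. Unc5cl stood at 0.904 FPKM in foregut and 1.08 in medial foregut, against 1.54 in liver and 2.65 and 1.67 in ventral and dorsal pancreas over a locus that covered 19.3% of its gene. Sema4b, Sema6b, Plxnb2 and Unc50 were the 4 members of the 58 whose highest value was under 2 times the lowest. Plxna4 stood at 4.06 FPKM in foregut and 7.14 in medial foregut, against 1.15 in liver and 3.03 and 0.353 in ventral and dorsal pancreas, and Plxnc1, the Sema7a receptor, at 9.06 FPKM in foregut and 4.72 in medial foregut, against 4.37 in liver and 2.33 and 1.55 in ventral and dorsal pancreas. These 2 receptors had their lowest values in dorsal pancreas.

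Among the members under 5 FPKM throughout, Unc5a stood at 4.37 FPKM in foregut and 1.40 in medial foregut, against 0.636 in liver and 4.09 and 4.76 in ventral and dorsal pancreas. Ntn4, a netrin of basement membranes, stood at 0.684 FPKM in foregut and 0.407 in medial foregut, against 0.4999 in liver and 3.46 and 1.88 in ventral and dorsal pancreas. Sema3d stood at 0.608 FPKM in foregut and 0.861 in medial foregut, against 1.98 in liver and 1.332 and 2.92 in ventral and dorsal pancreas. Unc5a was lowest in liver and Sema3d highest in dorsal pancreas, but none of these met the minimum for a count. Sema3b stood at 3.21 FPKM in foregut and 2.35 in medial foregut, against 0.256 in liver and 3.57 and 2.86 in ventral and dorsal pancreas. The Unc5d locus covered 0.166% of its gene, so its level of 0.389 to 3.50 FPKM is that of a fragment.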

How the data were processed

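Poly(A) RNA of 5 tissues was sequenced as paired-end libraries primed with random hexamers, per the labels' protocols, with 1 library each. The authors deposited FPKM values per locus, per the file headers. TopHat 1.33, Cufflinks 1.3.0 and the build mm9 are named in the submitters' processing notes; they do not say how libraries were scaled. Summed FPKM ran from 437581 to 506529 per library. Depth in reads is unknown: among loci under 0.5 FPKM in both libraries, at most 1.74% shared a common ratio, so no read counts could be recovered and no interval is given.

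Of 14053 loci, 1678 without a name were not used. Differences were taken in log2(FPKM + 1) with Python 3.11.15, numpy 2.4.6 and pandas 2.3.3, which understates the change of low genes. The counting rule was checked on simulated data. Coordinates are those of the table. GENCODE M21 on another build served only for names, strand and span, and RefSeq for promoters. Any member could be named; full values were given for members counted between the E10.5 organs or between the E8.5 tissues, for the 8 largest differences of each sign from E8.5 and for family leaders, and for pathway lists at most 4 counted genes. The name rule reads no measured value, but the members and lists were chosen with earlier results of these data known. Alternatives were other pseudocounts, minimums, a 4-times rule, rescaled libraries, and sets without low, partial, overlapping or like-named loci.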

Additional observations from a re-analysis of the deposited data

Results flagged for a closer look

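For 2 members, liver and ventral pancreas lay on opposite sides of both E8.5 libraries. For Efnb2 the difference in log2(FPKM + 1) nearest to 0 was -2.27 in liver and 1.08 in ventral pancreas. For Sema3c it was -1.79 in liver and 1.54 in ventral pancreas. The comparisons share the E8.5 libraries, and the difference was not tested, since each tissue has 1 library.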

How the results depend on the processing

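Of the member counts and medians under other settings, 161 were classed as unchanged and 39 as moved. The unchanged class was wide. It held 19 and 10 members lower in liver than in both pancreatic libraries where 13 were reported. It also held 9 members lower in ventral pancreas than at E8.5 where 6 were reported. No member median or single-gene call changed sign. Values over all named loci did turn: the median of ventral minus dorsal pancreas went from 0.01 to -0.09 at the same total and -0.011 by median ratio, and some splits turned as given above. No paired analysis was possible because each tissue has 1 library, and no library could be left out. With a pseudocount of 5 FPKM, liver against both pancreatic libraries had 1 member higher and 5 lower, ventral against dorsal pancreas 3 lower, foregut against medial foregut 0 higher, liver against E8.5 10 lower, ventral pancreas against E8.5 3 higher and 2 lower, and dorsal pancreas against E8.5 5 higher and 3 lower. With a difference of at least 2, the same comparisons had 0 higher and 3 lower, 1 higher and 1 lower, 0 higher, 4 lower, 1 higher and 0 lower, and 1 higher and 1 lower. Rescaled to the same total, 5 members were higher in foregut than in medial foregut and 10 lower in ventral pancreas than at E8.5. That rescaling multiplied the libraries by 1.97 to 2.29 with the 5 FPKM minimum unchanged, which by itself lets more loci be counted. With a pseudocount of 0.1, 1 member was lower in foregut.

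The member medians at a pseudocount of 5 were -0.36 (liver minus ventral pancreas), -0.40 (liver minus dorsal pancreas), -0.12 (ventral minus dorsal pancreas), -0.51 and -0.31 (liver minus foregut and medial foregut), 0.078 and 0.10 (ventral pancreas minus the same) and 0.15 and 0.22 (dorsal pancreas minus the same). Rescaled to the same total they were -0.33 for ventral minus dorsal pancreas, 0.18 for foregut minus medial foregut, and 0.37 and 0.70 for ventral and dorsal pancreas minus medial foregut. At a pseudocount of 0.1 they were -1.28 for liver minus foregut and 0.36 for ventral pancreas minus medial foregut. By median ratio they were 0.043 and 0.15 for ventral pancreas minus foregut and medial foregut. The cause was not tested beyond what each setting changes by its construction. Of 83 single-gene results, 14 kept their call in each setting and 38 in each but the 4-times rule. The 2 alternatives without like-named or overlapping loci were chosen after seeing the data. Without replicates, the spread between embryos is unknown.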

Other observations

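Loci whose name joins a guidance gene to a neighbour were left out of the members, and their values cannot be assigned to a gene. The locus of Efnb3 and Wrap53 stood at 33.7 FPKM in foregut, 16.4 in medial foregut and 7.27 in liver, with 15.6 and 15.9 in the ventral and dorsal buds. The locus of Adam15, Dcst1 and Efna4 stood at 21.2 FPKM in foregut, 23.0 in medial foregut and 13.4 in liver, with 33.1 and 32.5 in the buds. The locus of Ntn3 and Tbc1d24 stayed between 2.92 and 5.27 FPKM. Liver held the lowest value of each of the 3 loci.

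The order of the 58 members by level differed more between libraries than the order of all 12375 named loci. Spearman's rho was 0.923 for members and 0.987 for all loci between foregut and medial foregut. It was 0.762 and 0.941 between ventral and dorsal pancreas, and 0.680 and 0.866 between liver and dorsal pancreas. Genes within a library share its depth and are not independent replicates.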
